A study of Caenorhabditis elegans with 6 samples.

Results

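Chromosome X of C. elegans was divided into 355 consecutive windows of 50 kb, numbered from its left end on the WBcel235 build. They cover the whole of X, which was taken because its excess of peaks was already known. They make up 355 of the 2008 windows of the 6 nuclear chromosomes. In each window the centres of the HIF-1::GFP ChIP-seq peaks of egl-9 mutants and of the control strain were counted, to ask where on X its excess of peaks lay. The mutant strain OR3350 was egl-9(sa307); hif-1(ia4); odIs131, and the control strain OR3349 was hif-1(ia4); odIs131. By the study's methods both also carried unc-119(ed3), with unc-119(+) in the transgene as the selection marker. Both strains therefore lacked endogenous hif-1 and expressed HIF-1 fused to GFP from the same integrated line of a genomic fosmid. The study's supplement places this insertion on X, and whether it bears on the peaks of X was not tested. Whole L4 hermaphrodites were grown at 20 °C under 21% O2 on OP50 bacteria, so no tissue of origin can be given for a peak. Each genotype had 2 ChIP replicates precipitated with anti-GFP antibodies and 1 input, and the deposited data hold 1 reproducible peak list per genotype. The depth of each single library and the spread between replicates are unknown, and each value below describes 1 list. The intervals given are 95% Wilson intervals for shares and exact intervals for ratios, and both cover the sampling of peaks only.

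HIF-1 is a bHLH-PAS transcription factor that binds with a partner, AHA-1 in C. elegans, to hypoxia response elements whose core is RCGTG. EGL-9 hydroxylates HIF-1 when oxygen is present, and the hydroxylated protein is bound by VHL-1 and degraded, so that egl-9 mutants keep HIF-1 in room air. Chromosome X differs from the autosomes in several ways that bear on a map of binding sites: it is rich in tRNA genes, it carries fewer genes expressed in the germ line, and in hermaphrodites it is bound by the dosage compensation complex. That complex is loaded at recruitment sites on X, whose known sequence motif holds GCGCAGGG, and from there spreads along the chromosome.

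The 3 highest intronic peaks of X in egl-9 mutants each held an HRE core, and their sequences are shown because they ranked 1, 2 and 4 by signal on this chromosome. Each line gives 201 bp of the plus strand around a peak centre, with every RCGTG match on either strand in capitals. Where 2 matches overlap on opposite strands they form the palindrome CACGTG. The 3 stretches held 5, 3 and 3 matches.
ZK470.2 intron (X:4142202-4142402): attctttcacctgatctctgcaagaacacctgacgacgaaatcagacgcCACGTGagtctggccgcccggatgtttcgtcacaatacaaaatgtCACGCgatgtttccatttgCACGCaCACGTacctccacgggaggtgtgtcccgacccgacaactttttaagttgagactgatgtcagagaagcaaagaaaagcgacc
H18N23.2 intron (X:17631005-17631205): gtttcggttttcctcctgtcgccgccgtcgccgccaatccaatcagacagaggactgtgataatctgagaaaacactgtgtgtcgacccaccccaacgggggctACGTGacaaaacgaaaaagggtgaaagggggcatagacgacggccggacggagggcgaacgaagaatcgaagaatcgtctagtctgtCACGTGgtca
gnrr-3 intron (X:10051749-10051949): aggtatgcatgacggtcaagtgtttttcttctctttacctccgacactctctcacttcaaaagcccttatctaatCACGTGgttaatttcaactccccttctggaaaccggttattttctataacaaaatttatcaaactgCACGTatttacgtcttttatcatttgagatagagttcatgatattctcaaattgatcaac

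A further set of sites on X carried a different sequence, GCGNAGGG, and 3 of the highest of them that overlapped a control peak are shown for comparison. The capitals mark GCGNAGGG on either strand, so that a match on the minus strand reads in reverse complement. The stretches held 3, 2 and 3 matches, and the stretches upstream of xol-1 and near W02H3.3 also held 2 matches each to TTATCCAC (left in lower case). Both sequences were picked after sequences of control peaks on X had been seen, so their counts are described without a test.
mom-1 intron (X:6296444-6296644): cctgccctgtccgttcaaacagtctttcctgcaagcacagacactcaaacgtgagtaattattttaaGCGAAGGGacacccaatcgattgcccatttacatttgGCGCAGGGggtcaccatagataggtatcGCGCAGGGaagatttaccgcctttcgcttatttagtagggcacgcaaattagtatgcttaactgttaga
site upstream of xol-1 (X:8036370-8036570): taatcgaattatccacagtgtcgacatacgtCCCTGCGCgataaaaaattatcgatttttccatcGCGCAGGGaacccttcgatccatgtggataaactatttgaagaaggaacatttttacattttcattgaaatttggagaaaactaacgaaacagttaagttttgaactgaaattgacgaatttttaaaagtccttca
site near W02H3.3 (X:11094079-11094279): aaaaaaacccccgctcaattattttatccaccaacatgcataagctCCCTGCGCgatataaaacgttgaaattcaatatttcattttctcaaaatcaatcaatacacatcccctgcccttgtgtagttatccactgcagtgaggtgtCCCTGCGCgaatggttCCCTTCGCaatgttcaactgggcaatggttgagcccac

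The third kind of site lay at tRNA genes. The example is the highest X site of egl-9 mutants within 500 bp of a tRNA gene that held the B box GTTCGANNC, the internal promoter element of tRNA genes, which is in capitals. Its centre lay 32 bp from the tRNA gene F15G9.t1, in an intron of him-4, and its signal was 107.
F15G9.t1 site (X:9743592-9743792): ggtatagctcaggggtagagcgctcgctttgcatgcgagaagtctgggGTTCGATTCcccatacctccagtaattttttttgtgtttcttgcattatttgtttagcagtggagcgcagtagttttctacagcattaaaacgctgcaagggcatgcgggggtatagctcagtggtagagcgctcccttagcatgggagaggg

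In egl-9 mutants 141 of 604 nuclear peaks were centred on X (23.3%, interval 20.1 to 26.9%), which makes up 17.7% of the nuclear genome. X had 7.96 peaks per Mb, against 5.61 per Mb on the autosomes, a ratio of 1.42 (exact interval 1.17 to 1.72, exact binomial test, two-sided, p = 0.000417). At the autosome rate 99.4 peaks would have lain on X, so the excess came to 41.6 peaks. Of the 52 control peaks, 19 were on X (36.5%, interval 24.8 to 50.1%), with 1.07 per Mb on X and 0.400 per Mb on the autosomes, a ratio of 2.68 (1.44 to 4.86, exact binomial p = 0.00144). The excess on X was known before these tests were chosen, so their p-values are not independent evidence of it. The same holds for the tests below of X against length within kinds of site. They also take peaks as independent, though some were overlapping calls at 1 site. In both lists X had the highest density of the 6 chromosomes. Among autosomes the density ran between 4.30 per Mb on V and 7.0 per Mb on II in egl-9 mutants, so that X at 7.96 per Mb stood only a little above II.

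**Figure D1:**
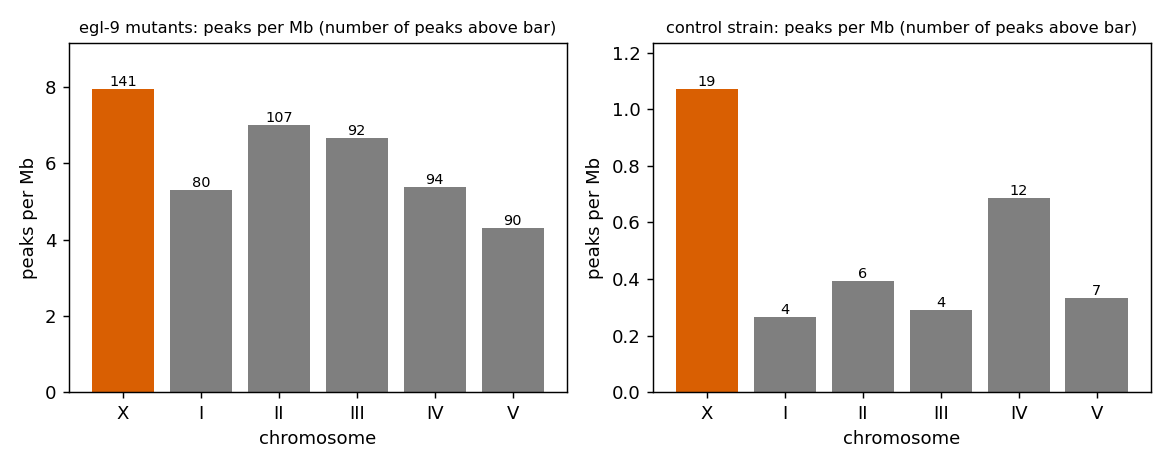
Peaks per Mb on each chromosome in egl-9 mutants (left) and the control strain (right), with the number of peaks above each bar, X in orange and autosomes in grey. X had the tallest bar in both panels, 7.96 and 1.07 per Mb, and the panels have different scales.

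The share of peaks on X was 23.3% in egl-9 mutants, lower than the 36.5% of the control strain (odds ratio 0.53, Fisher's exact test, two-sided, p = 0.0426). Since many sites occur in both lists, they are not independent samples, and they also differ in length and lowest signal. Of the 86 peaks of egl-9 mutants with a signal at or above the lowest control signal, 24 lay on X (27.9%), and against these the odds ratio was 0.67 and no longer passed the test (Fisher's exact p = 0.344).

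Across the windows of X, peaks of egl-9 mutants were spread thinly. Of the 355 windows, 105 (29.6%) held at least 1 centre, against 21.6% of all 2008 windows and 19.9% of the 1653 autosomal windows. There were 250 windows with 0 centres, 79 with 1, 19 with 2 and 7 dense windows with 3 or more, and the most was 4. The dense windows made up 1.97% of X windows, against 1.49% of all windows and 1.39% of autosomal windows. The variance of the counts was 1.3 times their mean on X and 1.56 times on the autosomes. The counts on X were thus less clumped than those of the autosomes as a whole, though chromosome III was lower, at 1.21. Windows with a single centre numbered 79 of 355 on X and 231 of 1653 on autosomes. Much of the higher density of X lay in such windows, while dense windows were also somewhat more frequent on X. Control peaks fell in 19 windows of X, 1 in each (5.35%, against 2.44% of all windows), and 18 of these windows also held a centre of egl-9 mutants.

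**Figure D2:**
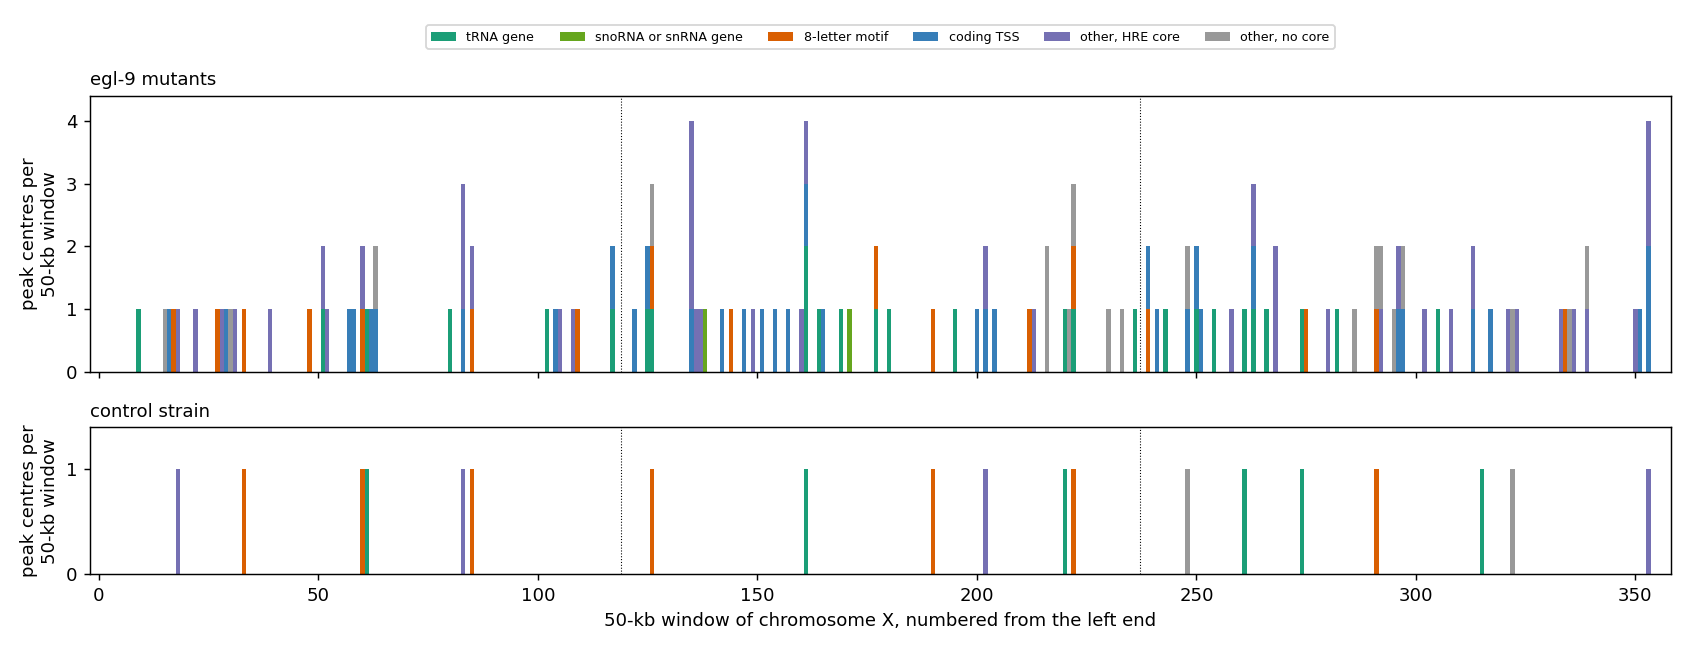
Peak centres in each of the 355 windows of X in egl-9 mutants (top) and the control strain (bottom), coloured by the kind of site, with dotted lines dividing X into 3 equal parts. The 8-letter motif is GCGNAGGG. Centres occur along the whole chromosome, with 7 windows of 3 or 4 in egl-9 mutants and none above 1 in the control strain.

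The middle part of X held close to its share of the peaks by length. The left, middle and right parts of X, of 5.91 Mb each, held 38, 50 and 53 centres of egl-9 mutants, and 6, 6 and 7 of the control strain. The middle part thus had 35.5% of the centres on X in egl-9 mutants (interval 28 to 43.6%, exact binomial test against 33.3% of the length, p = 0.593) and 31.6% in the control strain (15.4 to 54.0%, exact binomial p = 1), and the left and right parts were not tested singly. Median signals of egl-9 mutants in the 3 parts were 81.2, 70.7 and 74.9. The tRNA genes of X were unevenly placed, with 51, 107 and 118 in the 3 parts, and the peaks at them numbered 6, 12 and 9. Peaks with GCGNAGGG numbered 7, 7 and 4. The longest stretches without a centre were 2 runs of 16 windows (800 kb), at X:3150001-3950000 and X:4250001-5050000. Both lay in the left part, and they held 130 and 131 coding genes and 1412 and 1361 RCGTG matches, against 123 and 1394 for 16 average windows of X. Their tRNA genes numbered 3 and 6, against 12.4 for 16 average windows.

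The content of a window told little about its count. Over the 354 full windows of X, the count of centres of egl-9 mutants had Pearson correlations of 0.19 with RCGTG matches, 0.14 with GCGNAGGG matches, 0.10 with tRNA genes, 0.10 with coding genes, 0.03 with coding TSSs and 0.06 with GC content. The windows share 1 list and their base composition and gene density vary together, so these are given as a description. Windows with 2 or more centres averaged 93.2 RCGTG matches, those with 1 centre 90.2, and those without a centre 85.7. A tRNA gene was present in 123 windows of X, of which 48 (39%) held a centre, against 57 of the 232 windows without one (24.6%). The coding TSSs averaged 12.5 in windows with 2 or more centres, 11.5 in those with 1 and 11.7 in those without.

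The excess of X differed by the kind of site. Peaks centred at small RNA genes (tRNA, snoRNA or snRNA, within 500 bp) numbered 29 on X and 70 on autosomes in egl-9 mutants, a ratio per Mb of 1.93 (exact interval 1.21 to 3.02, exact binomial adjusted p = 0.0102, Benjamini-Hochberg over 6 tests). Peaks farther from such genes but within 500 bp of a protein-coding TSS numbered 37 and 207, a ratio of 0.83 (0.57 to 1.19, exact binomial adjusted p = 0.356), so no excess of X passed the test at promoters. Peaks near neither numbered 75 and 186, a ratio of 1.88 (1.42 to 2.47, exact binomial adjusted p = 6.05e-05). The same 3 classes of control peaks numbered 6 and 11, 0 and 10, and 13 and 12, with ratios, by exact binomial tests, of 2.54 (adjusted p = 0.152), 0 (adjusted p = 0.272) and 5.05 (2.12 to 12.1, adjusted p = 0.000302). X thus exceeded the autosomes in both lists at sites near neither, and at small RNA genes in egl-9 mutants.

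The peaks were also placed in exclusive groups, in the order tRNA gene, snoRNA or snRNA gene, GCGNAGGG, coding TSS, and the rest with or without an HRE core. Because GCGNAGGG was chosen on these peaks, the split is a description. In egl-9 mutants the tRNA group held 27 peaks on X and 20 on autosomes, 22.7 more than the autosome rate per Mb gives. This difference is per Mb and not per tRNA gene, since X had 15.6 tRNA genes per Mb against 4.07 on autosomes. Of the tRNA genes themselves, 12.0% on X and 7.14% on autosomes had a centre within 500 bp. That difference missed the threshold (Fisher's exact test, adjusted p = 0.100). The GCGNAGGG group held 17 on X and 5 on autosomes, 15.9 more. These groups together, 44 of the 141 peaks on X, came to 92.8% of the net excess. The other groups had differences from the autosome rate that nearly cancelled: 12.2 peaks for other sites with a core, 8.05 for other sites without one, -8.57 at coding TSSs, and -8.73 at snoRNA and snRNA genes. In the control strain the tRNA and GCGNAGGG groups held 13 of the 19 peaks on X (68.4%) but 2 of the 33 on autosomes (6.06%).

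**Figure D3:**
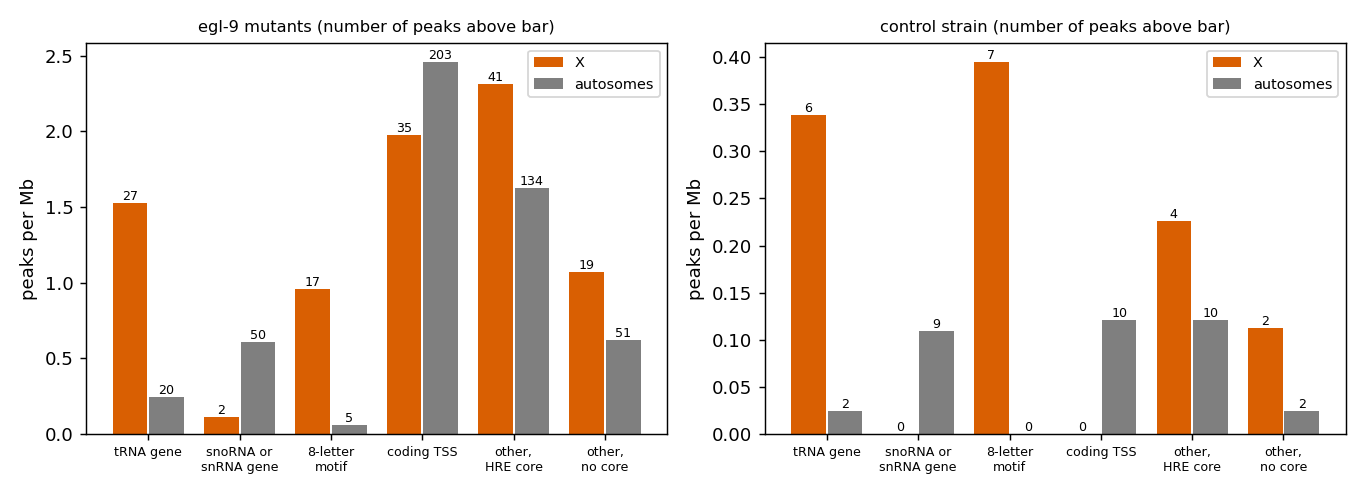
Peaks per Mb on X (orange) and autosomes (grey) for 6 exclusive kinds of site in egl-9 mutants (left) and the control strain (right), with the number of peaks above each bar. The 8-letter motif is GCGNAGGG, and the panels have different scales. X exceeded autosomes at tRNA genes, 27 peaks against 20, and at the motif, 17 against 5, in egl-9 mutants.

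Without the peaks at small RNA genes, egl-9 mutants had 112 peaks on X and 393 on autosomes, a ratio per Mb of 1.33 (exact interval 1.07 to 1.64, exact binomial p = 0.0101), and the control strain had 13 and 22, a ratio of 2.75 (1.27 to 5.71, exact binomial p = 0.00605). Since GCGNAGGG was picked from peaks on X, leaving out the peaks that hold it must lower the ratio, and these values are given without a test. Without GCGNAGGG peaks the ratio was 1.26 in egl-9 mutants (123 on X, 455 on autosomes) and 1.75 in the control strain (12 and 32). Without both kinds of peak it was 1.14 in egl-9 mutants (95 and 388) and 1.27 in the control strain (6 and 22). The settings that drop GCGNAGGG peaks were added after the data were seen.

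Peaks on X were compared with autosomal peaks of the same list for 13 features by Fisher's exact tests (two-sided, Benjamini-Hochberg adjusted), and 4 passed an adjusted p of 0.05 in egl-9 mutants. A tRNA gene lay within 500 bp of 19.1% of X peaks (27 of 141, interval 13.5 to 26.4%), against 4.32% of autosomal peaks (20 of 463, 2.81 to 6.58%), an odds ratio of 5.25 (Fisher's exact test, adjusted p = 1.92e-06). A coding TSS lay within 500 bp of 29.1% of X peaks (22.2 to 37.0%), against 48.4% of autosomal peaks (43.9 to 52.9%), an odds ratio of 0.44 (Fisher's exact test, adjusted p = 0.000297). A snoRNA gene was near 1.42% against 7.99% (odds ratio 0.17, Fisher's exact test, adjusted p = 0.0131). Overlap with a control peak was seen for 16.3% of X peaks and 8.21% of autosomal peaks (odds ratio 2.18, Fisher's exact test, adjusted p = 0.0319), and with overlapping peaks merged this last difference missed the threshold (adjusted p = 0.0543).

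The HRE core was about as frequent in X peaks as in autosomal ones in egl-9 mutants. RCGTG lay within 100 bp of the centre in 67.4% of X peaks of egl-9 mutants (95 of 141, interval 59.3 to 74.6%) and in 68.0% of autosomal peaks (315 of 463, 63.7 to 72.1%; odds ratio 0.97, Fisher's exact test, adjusted p = 1). Of all consecutive 201-bp windows, 26.2% on X and 24.0% on autosomes held RCGTG. Matches were about as dense on X as elsewhere, at 1746 per Mb against 1689 per Mb. Among control peaks the share was 42.1% of X peaks (8 of 19) and 72.7% of autosomal peaks (24 of 33), with an unadjusted Fisher's exact p of 0.0402 and an adjusted p of 0.174. None of the 13 features passed the adjusted threshold in the control strain by this test. At an unadjusted p under 0.05 there were 3 in that list, namely the core, tRNA genes (31.6% on X against 6.06%) and coding TSSs (5.26% against 30.3%).

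**Figure D4:**
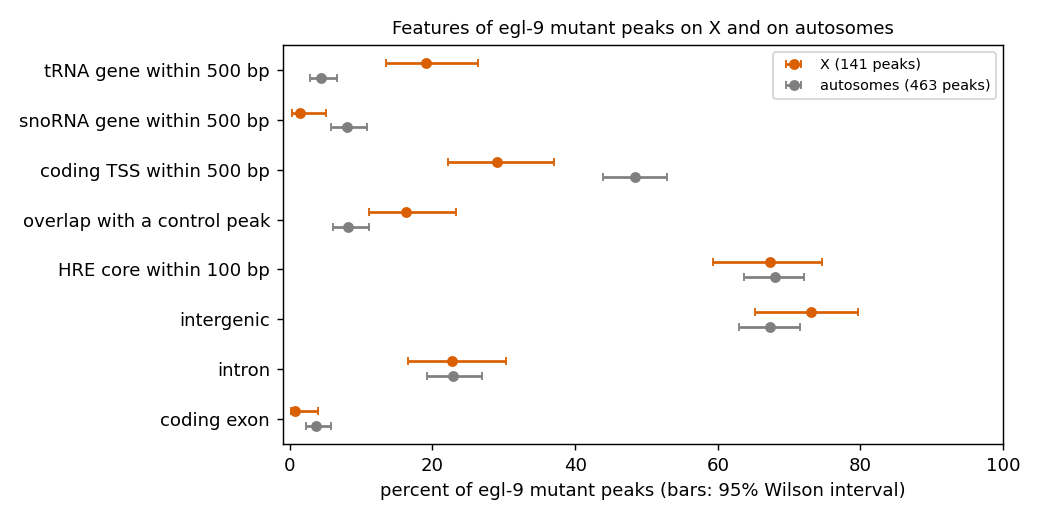
Share of egl-9 mutant peaks with each of 8 features on X (orange, 141 peaks) and on autosomes (grey, 463 peaks), with 95% Wilson intervals. The intervals are apart for tRNA genes (19.1% against 4.32%), coding TSSs (29.1% against 48.4%) and snoRNA genes (1.42% against 7.99%). They are narrowly apart for overlap with a control peak (16.3% against 8.21%), and nearly coincide for the HRE core (67.4% against 68.0%).

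The motif GCGNAGGG was present in 18 of the 141 X peaks of egl-9 mutants (12.8%) and 8 of the 463 autosomal peaks (1.73%). Among control peaks it was present in 7 of 19 X peaks (36.8%) and 1 of 33 autosomal peaks (3.03%). Of all 201-bp windows, 0.432% on X and 0.355% on autosomes held it, and it occurred 22.5 times per Mb on X and 18.6 times per Mb on autosomes. With the fixed base C, GCGCAGGG occurred 81 times on X (4.57 per Mb), and 18 of these occurrences (22.2%) fell inside peaks of egl-9 mutants. On the autosomes it occurred 233 times (2.82 per Mb), less densely than on X, and 2 of these (0.858%) fell inside such peaks. TTATCCAC was in 8 X peaks and 0 of the 463 autosomal peaks of egl-9 mutants, and in 5 X peaks and 0 of the 33 autosomal peaks of the control strain, while 0.458% and 0.446% of all 201-bp windows on X and autosomes held it.

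The 18 GCGNAGGG peaks of egl-9 mutants lay in 18 different windows, with a median spacing of 843 kb and a smallest spacing of 282 kb. Of these peaks 15 were intergenic and 2 intronic, and 2 lay within 500 bp of a coding TSS, with a median distance to the nearest TSS of 2521 bp. An RCGTG match was present in 8 of the 18 (44.4%), fewer than the 67.4% among all X peaks that include them. Their signals ran from 62.2 to 215 with a median of 173, against a median of 77.8 over all X peaks. They took 8 of the 15 highest places on X, including each of ranks 7 to 13. No list of dosage compensation recruitment sites was used here, so whether these sites are such sites was not tested.

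Named by the nearest coding TSS, the GCGNAGGG peaks among the 15 highest were those of cest-16 (signal 215, in an intron of mom-1, a porcupine homologue needed for Wnt secretion), xol-1 (212), F55G7.5 (210), W02H3.3 (207), F20B6.9 (207, between it and hpk-1, a homeodomain-interacting kinase), nspc-17 (206), K02D3.1 (204) and ZK899.6 (188). XOL-1 is the switch that sets male fate and is repressed in hermaphrodites, but this site lay 4843 bp upstream of the nearest xol-1 TSS and 215 bp from a tRNA gene, so that it counts in the tRNA group above. The 7 control peaks with the motif were those of Y41G9A.17 (218), W02H3.3 (199), cest-16 (191), F20B6.9 (170), nspc-17 (150), fbxb-58 (143) and ZK899.6 (143). All 7 overlapped a peak of egl-9 mutants.

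The tRNA genes of X numbered 276 (15.6 per Mb), against 336 on the autosomes (4.07 per Mb). In egl-9 mutants 33 of the 276 X genes (12.0%) had a centre within 500 bp, against 24 of the 336 autosomal genes (7.14%), an odds ratio of 1.77 (Fisher's exact p = 0.050, adjusted p = 0.100 over 4 tests). With the control list, 8 X genes (2.90%) and 2 autosomal genes (0.595%) had one, an odds ratio of 4.99 (exact p = 0.0489, adjusted p = 0.100). Per tRNA gene, then, the difference between X and autosomes missed the threshold at 500 bp. At 1000 bp it passed narrowly in both lists, with odds ratios of 1.83 for egl-9 mutants and 4.17 for control peaks (Fisher's exact test, adjusted p = 0.04997 for each). The number of tRNA genes per Mb was itself larger on X. The 33 genes were reached by 27 peaks, since neighbouring tRNA genes can share one, and 25 of the 27 centres lay within 100 bp of a gene and 10 inside one. For snoRNA genes 2 of 33 on X (6.06%) and 38 of 313 on autosomes (12.1%) had a centre (odds ratio 0.47, Fisher's exact p = 0.400, adjusted p = 0.533).

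The amino acid of 273 of the 276 X tRNA genes was matched through RefSeq. In egl-9 mutants a centre lay near 5 of 20 glycine, 4 of 13 alanine, 4 of 20 proline, 4 of 18 serine and 3 of 17 leucine tRNA genes. It also lay near 2 of 6 asparagine and 2 of 8 tyrosine genes, and near 1 or 2 genes for each other amino acid with any. It lay near 0 of 14 valine and 0 of 14 threonine genes, and none of the 9 histidine, 8 methionine, 7 cysteine, 6 phenylalanine and 5 tryptophan genes had one. These counts are too small for an order among the amino acids. Most tRNA peaks were weak, with a median signal of 66.4 in egl-9 mutants, and 12 of the 27 (44.4%) held RCGTG. The 6 tRNA peaks of the control strain lay near M02F4.t2 (173), C18A11.t2 (162, the site upstream of xol-1), ZK678.t1 (162, with nhr-255 as the nearest coding gene), C53C7.t2 (154), C04A11.t1 (144) and K09C8.t1 (142, near nas-10).

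Signals on X resembled those on the autosomes. The median signal of X peaks of egl-9 mutants was 77.8 (quartiles 65.1 and 109), against 76.2 (61 and 103) on autosomes, and X held 15 of the 50 highest peaks of the list. The control medians were 162 on X and 173 on autosomes. Signals are the deposited values, which were not scaled between the lists, so a peak can be ranked within its list but its 2 signals give no fold change. The highest X peak had rank 4 among the 604 peaks of egl-9 mutants.

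**Figure D5:**
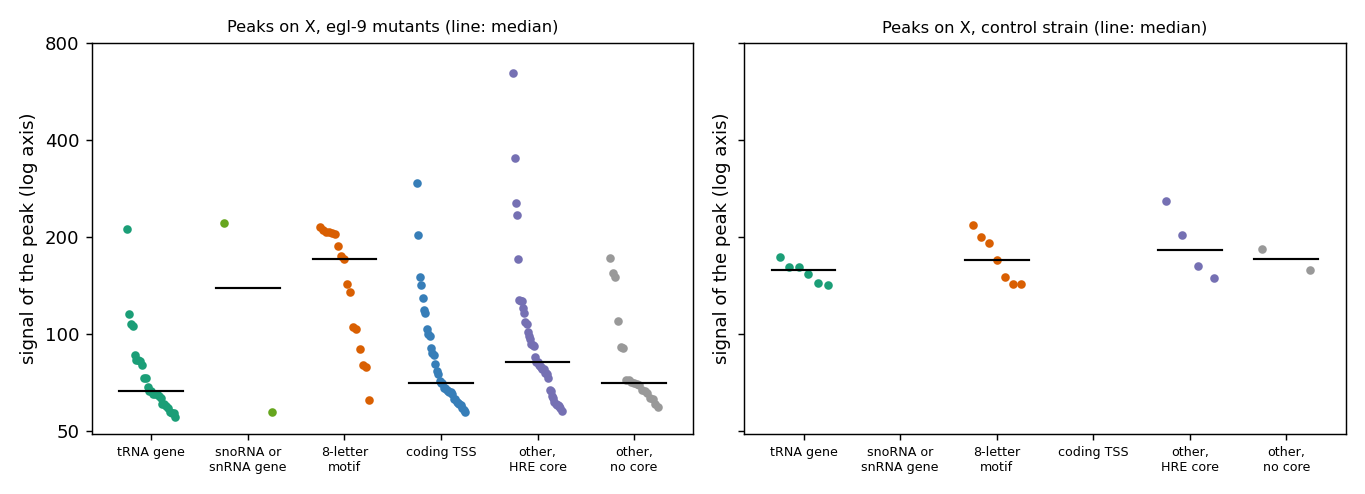
Signal of each peak on X by kind of site (log axis) in egl-9 mutants (left) and the control strain (right), with a line at each group's median. In egl-9 mutants the 8-letter motif, GCGNAGGG, had a median of 170 over 17 peaks, and the tRNA group 66.4 over 27.

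The strongest site of X in both lists lay in an intron of ZK470.2, with signals of 649 in egl-9 mutants and 259 in control animals, and the runner-up in egl-9 mutants was in an intron of H18N23.2 (352 and 204). These were followed by mai-1 (294), gnrr-3 (254), acl-12 (234) and sdha-1 (221), none of which held GCGNAGGG and each of which held 1 or more RCGTG matches. The centre of the mai-1 peak lay in its 5′ UTR, 188 bp downstream of the TSS. MAI-1 is a homologue of the mitochondrial ATPase inhibitor, and its gene heads a known operon with gpd-2 and gpd-3, which encode the glycolytic enzyme GAPDH. The centre lay 1712 bp from the nearest gpd-2 TSS and 3060 bp from that of gpd-3, and no control peak overlapped it. SDHA-1 is a subunit of succinate dehydrogenase. Its peak lay 178 bp upstream of the TSS and inside the snoRNA gene D2021.6, so which of the genes it belongs to cannot be told from position. The gnrr-3 site, in a gene for a receptor related to that of gonadotropin-releasing hormone, had a control counterpart (162).

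Both subunits of propionyl-CoA carboxylase, the mitochondrial enzyme that starts the breakdown of propionate, are encoded on X and both genes had a peak at the TSS in egl-9 mutants. The pccb-1 peak had a signal of 204, with its centre 185 bp from the TSS and 2 RCGTG matches. The pcca-1 peak, named after its values were seen, had a signal of 103, with its centre 336 bp from the TSS and 2 matches. Neither overlapped a control peak. The nearest TSS to another X site with a control counterpart was that of cdo-1, which encodes cysteine dioxygenase (signals 127 and 149, centre 970 bp from the TSS in egl-9 mutants, in an exon of lgl-1).

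The 7 dense windows held 24 centres, and several of these were neighbouring calls at 1 site. Window 83 held the ZK470.2 intron site, an overlapping call (91.9) and a peak 75 bp from a TSS of ZK470.2 (66.9). Window 353 of the 355, near the right end, held 4 peaks along H18N23.2, with signals of 352, 86.1, 74.9 and 62.7. Window 135 held 4 separate peaks, each with 2 to 4 RCGTG matches. They lay 4473 bp upstream of the R03E9.2 TSS (120), at the start of mdl-1 (67.9), past the mdl-1 TSS (92.5) and in an intron of abts-4 (128). A further peak in an intron of abts-4 (92.8, 2 matches) fell just past the window edge, in window 136. Window 135 as a whole held 142 RCGTG matches, the most of any window of X, against a mean of 96.3 over the dense windows. MDL-1 is a MAD-like bHLH protein. Window 161 held 2 peaks at unk-1 (98.4 and 59.5) and 2 overlapping calls upstream of xol-1 (212 and 82.4). Window 126 held the mom-1 intron site (215), an overlapping call (91.3) and a tRNA peak near lev-9 (65.2). Window 222 held the W02H3.3 site (207), an overlapping call (59.3) and a tRNA peak (65.1). Window 263 held peaks at F17H10.1 (119), at a tRNA gene in snx-17 (64.0) and in an intron of F09A5.3 (109). The F09A5.3 peak had 3 RCGTG matches and lay 335 bp from cel-mir-54. With overlapping peaks merged, 4 windows of X kept 3 or more regions.

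The 19 control peaks of X can be set beside their counterparts in egl-9 mutants, since all but the nhr-255 peak, 18 of the 19, overlapped one. The ratio of the signal in egl-9 mutants to that in the control strain was taken only to compare groups, because the lists were not scaled to each other. Its median was 1.65 over the 4 sites with an HRE core and neither GCGNAGGG nor a small RNA gene (range 0.85 to 2.51), 1.12 over the 7 GCGNAGGG sites (0.73 to 1.37), and 0.66 over the 5 tRNA sites (0.39 to 1.31). The ranges overlap, and the numbers are small. The highest tRNA ratio, 1.31, came from the site upstream of xol-1, whose egl-9 mutant peak also held GCGNAGGG, and the next was 0.73. A ratio exists only for a site that passed the cutoff of both lists, and the lowest control signal was 141. Sites called in egl-9 mutants alone are left out, so these medians do not describe the whole groups. On autosomes the same ratio had a median of 1.22 over 10 sites with a core away from TSSs and 0.42 over 2 tRNA sites. The remaining X pair, F19H6.5 (154 in egl-9 mutants, 184 in control) and T27A8.7 (172 and 158), held neither RCGTG nor GCGNAGGG.

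The coding genes of X were marked about as often as those elsewhere. Of the 2731 protein-coding genes of X, 66 (2.42%) had a centre of egl-9 mutants within 1000 bp of a TSS, against 2.27% of all protein-coding genes. In the control strain 5 had one (0.183%, against 0.14% of all). Genes of X were also sparser, at 154 per Mb, against 188 to 239 per Mb on the autosomes. Among these genes (named after their values were seen) were aak-2, the catalytic subunit of AMPK (116), puf-9, a Pumilio-family RNA-binding protein (116), ftt-2, a 14-3-3 protein (151), hsp-3, a BiP chaperone of the endoplasmic reticulum (90.1), uggt-1, which tags misfolded glycoproteins there (76.9), and ucr-2.1, a subunit of the cytochrome bc1 complex (68.0). The ucr-2.1 peak lay nearer to the TSS of nmat-1 (109 bp), also named after its values were seen, than to that of ucr-2.1 (277 bp).

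Gene lists were counted for their X-linked members. No centre of egl-9 mutants lay within 1000 bp of a TSS of the 3 glycolysis and gluconeogenesis genes, 2 hypoxia pathway genes, 6 X signal element and dosage compensation genes or 2 ribosomal protein genes on X. The same was true of the 32 neuropeptide, 27 collagen, 37 ligand-gated and potassium channel, 18 ceh homeobox and 33 chemoreceptor genes. At the background of 2.27% fewer than 1 member of each list would have one, so these zeros say little. Distances to gpd-2 and gpd-3 were taken from their own TSSs and not from that of mai-1. That gene heads their operon and had a peak (294). Of the hypoxia pathway genes, vhl-1, the ubiquitin ligase subunit that recognises hydroxylated HIF-1, lay 165951 bp from the nearest centre, and cysl-1, which binds and inhibits EGL-9, lay 4251 bp from one. Of 23 nuclear hormone receptors on X, nhr-40 (79.2) and nhr-1 (66.4) had a centre in egl-9 mutants and nhr-255 (162) in the control strain. Of 72 microRNA genes on X, 5 (6.94%) had a centre of egl-9 mutants within 1000 bp, from 2 peaks, against 9 of 187 on the autosomes (4.81%), from 8 peaks. Of these, cel-mir-54, cel-mir-55, cel-mir-55b and cel-mir-56 shared the F09A5.3 peak, and cel-mir-237, a relative of lin-4, lay 599 bp from a peak of signal 58.7 that was centred inside the tRNA gene F22F1.t3. No microRNA gene of X had a control centre that close.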

How the data were processed

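HIF-1::GFP was mapped in 2 genotypes with 6 libraries. The authors aligned reads with BWA (named in the submitters' notes, with the WBcel235 build; the methods name WS245), called peaks with SPP against input, and kept peaks by an irreproducibility discovery rate threshold, which gave 1 deposited list per genotype. The deposited signal value of a peak was used as it stands; its lowest values in both lists differ from those in the methods, so whether it is the quantity described there is not known. The deposited summit offset and the remaining columns were not used. The methods give the read depth as a range over the libraries, and the depth of each single library is not given in the sources used here.

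Starts were read as 0-based, and mitochondrial peaks (19 of egl-9 mutants, 18 of the control strain) were left out. Genes came from Ensembl release 115 on WBcel235 and the sequence and tRNA products from RefSeq on the same build. Trans-splicing is common in C. elegans and can place an annotated TSS downstream of the true start. Exact binomial and Fisher's exact tests (scipy 1.17.1) were two-sided at 0.05, with Benjamini-Hochberg adjustment (statsmodels 0.14.6). Motifs were searched on both strands within 100 bp of each peak centre. The procedures were tested on simulated data.

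Windows, lists and tests were chosen with earlier results of these data known. Named genes were those nearest to the 15 highest X peaks of egl-9 mutants, to each control peak on X and in dense windows, up to 4 members of each list by signal, and vhl-1, cysl-1, gpd-2 and gpd-3; other names, given after values were known, are marked in the text. The settings varied were the merging of peaks, signal, distances, window size, motif and the removal of small RNA and GCGNAGGG peaks.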

Additional observations from a re-analysis of the deposited data

How the results depend on the processing

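No paired analysis was possible because the replicates of each genotype had been reduced to 1 list by the authors, and for the same reason no replicate could be left out. Each list was instead recomputed under other settings, 2 of which, removal of GCGNAGGG peaks alone and together with small RNA gene peaks, were added after the data were seen. The summit in place of the centre was not run. A summit lies within its peak, so the chromosome cannot change, but distances, motif matches and windows could. Of 76 values of main comparisons, 57 kept their direction and their side of the threshold, stayed within 1.5 times a count or, where no test was made, stayed within the interval of the full list. For all other values the cause was not tested. The ratio of X to autosomes without GCGNAGGG and small RNA gene peaks was 1.14 for egl-9 mutants and 1.27 for the control strain, with no test. The control ratio was 1.72 (exact binomial p = 0.204) with signals at or above the list median. With 1000 bp in place of 500 bp, the ratio at small RNA genes in the control strain was 3.11 (adjusted p = 0.0239, exact binomial), and the odds ratios per tRNA gene were 1.83 for egl-9 mutants and 4.17 for the control strain, both then past the threshold (adjusted p = 0.04997 each, Fisher's exact test). The odds ratio for the share of peaks on X in egl-9 mutants against the control strain was 0.67 (p = 0.344) at or above the lowest control signal, 0.48 (p = 0.0597) without small RNA gene peaks (Fisher's exact tests), and 0.72 without GCGNAGGG peaks, with no test. Results that were near equality crossed it: the share of centres in the middle part over its share of the length was 0.96 without small RNA gene peaks and 0.99 at high signal, and the odds ratio of the HRE core was 1.11 for ACGTG alone, 1.13 without small RNA gene peaks and 1.03 with peaks merged. Dense windows numbered 26 at 2 or more centres, 4 with peaks merged and 3 without small RNA gene peaks. Control coding genes of X with a peak numbered 1 at 500 bp and 12 at 2000 bp.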
